A study of Mus musculus with 24 samples.

Results

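Cytosolic ribosomal protein genes were followed through 24 RNA-seq libraries of mouse acute myeloid leukaemia cells. Members were the rows of the deposited expression table whose symbol is Rpl or Rps with a number and at most 1 further letter, or is Rplp0, Rplp1, Rplp2 or Rpsa, and that reached 1 FPKM or more in at least 4 libraries. FPKM is a count of sequenced fragments divided by transcript length and by library size, so it is a level per length. Of 23361 rows, 80 met the name rule and 76 of them passed the level rule, 31 of the small subunit and 45 of the large subunit. The 4 that did not pass were Rpl10l, Rpl36a, Rpl39l and Rpl3l, and Rps4l had no row.

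The leukaemia carried NRASG12V and Mll-AF9 in (FVB/n X C57/BL/6J) F1 mice and was taken from spleens. There were 5 unsorted libraries and 4 sorted groups. MacHigh cells carry much of the surface protein Mac-1 and had 5 libraries. The 3 other groups carry little of it: MacLowKit-Sca1- (5 libraries) has neither Kit nor Sca-1 at its surface, MacLowKit+Sca1- (5 libraries) has Kit alone, and MacLowKit+Sca1+ (4 libraries) has both. All 5 groups shared both alleles and the strain, no group was free of leukaemia, and the promoter of the transgene, the age of the mice, any pooling are not given in the sources used here. The genes behind the gates followed them. Itgam, which encodes a chain of Mac-1, was at 633 ± 44.7 FPKM (SD, n = 5) in MacHigh and at 62.0 ± 25.3 (n = 4) in MacLowKit+Sca1+. It was less far down in MacLowKit-Sca1-, at 267 ± 87.9 (n = 5), and in MacLowKit+Sca1-, at 267 ± 132 (n = 5), with 351 ± 35.9 (n = 5) in unsorted cells. Kit was at 0.668 ± 0.158 (n = 5) in MacLowKit-Sca1- and at 39.8 ± 8.44 (n = 5) in MacLowKit+Sca1-. Ly6a, which encodes Sca-1, was at 7.67 ± 1.72 (n = 4) in MacLowKit+Sca1+ and at most 3.46 FPKM in any library of the other groups. Sample names begin with 11, 12, 26, L, N or R, and each of these 6 prefixes recurs across groups. The labels do not say what a prefix stands for, nor that replicates are separate animals, so p-values here measure only the spread between these samples.

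Ribosomal proteins and ribosomal RNA make up the 2 subunits of the ribosome: the small subunit decodes mRNA and the large subunit joins amino acids. In most cells their mRNAs are abundant and are held at like levels, and many begin with a terminal oligopyrimidine tract, a run of C and T letters through which mTORC1 and Larp1 control their translation. Myc raises their transcription. When ribosome assembly fails, free Rpl5 and Rpl11 bind Mdm2 and p53 is released. Ribosomal protein genes are also known for the large number of processed copies that they have left in mammalian genomes, most of them pseudogenes.

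The members did not lie at like levels in this table. Rpl8, a large subunit protein, and Rps9, a small subunit protein, were among the 3 with the highest means and had medians of 1499 and 1088 FPKM over the 24 libraries. At the other end, Rps13 had a median of 0.421 FPKM, and Rpl17 and Rpl27, the other 2 members with the lowest means, had 0.708 and 1.91. A median of 100 FPKM or more was found for 24 members and a median under 10 for 23. Only 61 members were at 1 FPKM or more in every library, 15 fell under 1 FPKM in at least 1 library, and 7 were listed at 0.001, the value that stands for 0 in this table, at least once. Spread differed as much as level. The highest library was over 10 times the lowest for 31 members and under 2 times for 6, namely Rpl29, Rpl4, Rpl8, Rps3, Rps9 and Rplp0. Summed over the 76 members, the level came to between 1.68% and 3.27% of the FPKM sum of a library.

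**Figure D1:**
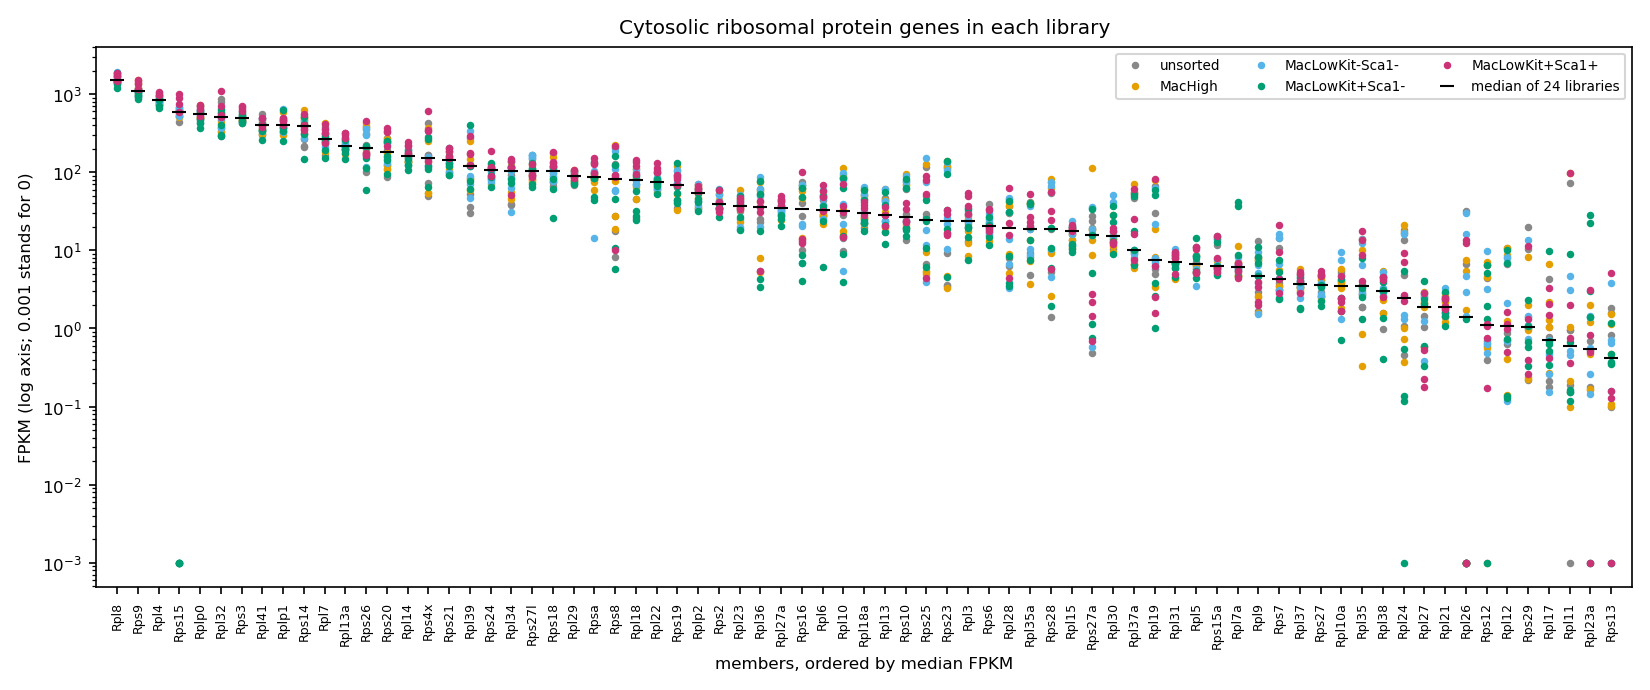
FPKM of 73 of the 76 members in each of the 24 libraries on a log axis, 1 column of points per member in the order of the medians (black bars), coloured by group. Medians of those shown run from 1499 FPKM for Rpl8 to 0.421 for Rps13, and the points of a member spread further at low medians.

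Levels went with how much of a member's coding sequence is found elsewhere in the transcriptome annotation. For each member the share of its 50-base coding stretches that also occur, letter for letter, in a transcript of another gene or pseudogene was counted (GENCODE M21, GRCm38, both strands). At a share of 20% or less there were 3 members, Rpl8 and Rps3 among them, and their median level was 1499 FPKM. The 9 members over 20% and up to 50% had a median of 329 FPKM, the 8 over 50% and up to 80% had 235, and the 56 over 80% had 18.2. Among the 28 members with a share of 100% the median was 6.88 FPKM, 11 fell under 1 FPKM in a library, and the highest was Rpl41 at 405. All 12 members at 50% or less had medians of 76.0 FPKM or more. Across the 76 genes Spearman's rho was -0.74 between the share and the median FPKM and 0.47 between the share and the SD of log2(FPKM + 1), given as a description, since genes share libraries, reads and gene families.

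**Figure D2:**
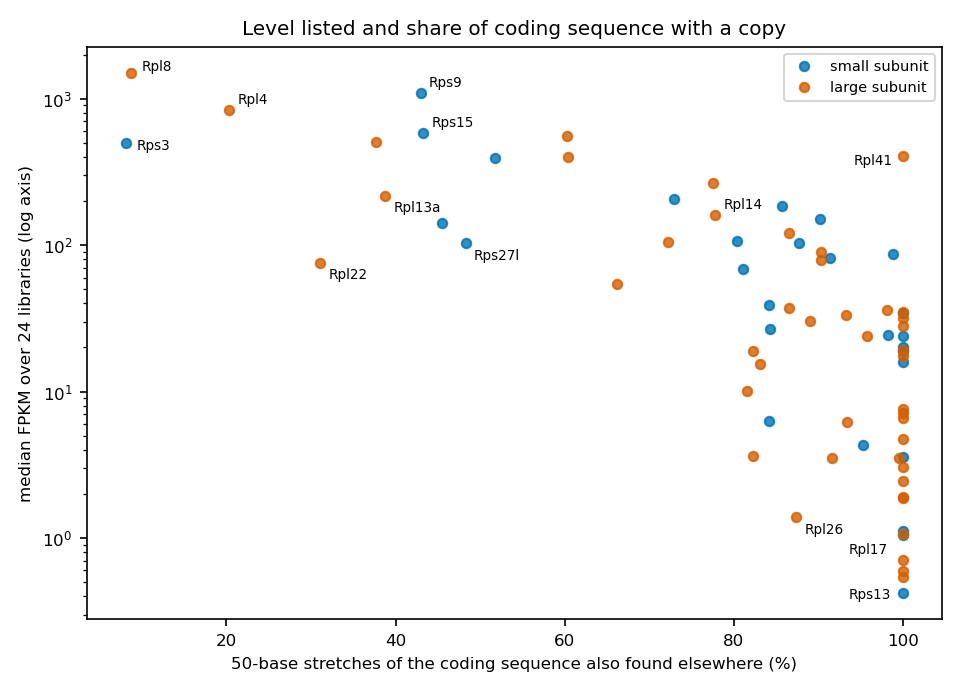
Median FPKM over 24 libraries (log axis) against the percent of 50-base coding stretches found in another gene or pseudogene, 1 point for each of 73 members, coloured by subunit. Members with a share of 50% or less all lie at 76.0 FPKM or more, and members with a share of 100% run from 0.421 to 405.

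Rows of copies stood beside rows of members in the same table. The coding stretches below show what a read has to tell apart. Rps3 (chr7:99477896-99483738, minus strand, GRCm38) had 8.09% of its stretches elsewhere, and its first 60 coding bases are given with the start codon in capitals. Rps15a (chr7:118104372-118116188, minus strand) is set beside Rps15a-ps4 (chr4:132219988-132220489, minus strand), Rpl26 (chr11:68901583-68906989, plus strand) beside Gm15772 (chr5:3236431-3236868, plus strand), and Rps23 (chr13:90922958-90924950, plus strand) beside Gm5148 (chr3:37714190-37724490, minus strand). Each pair shows the 60 coding bases that align without a gap and hold the most differences, with the differing letters in capitals. For Rps23 that stretch holds 1 difference, and the 8 bases in gaps of its alignment lie outside it. A copy was aligned on either strand. Rps23-ps1 (chr3:37714740-37715164, plus strand) lies within Gm5148, whose transcript is on the minus strand. The letters printed for Gm5148 may therefore run opposite to its transcript.
Rps3: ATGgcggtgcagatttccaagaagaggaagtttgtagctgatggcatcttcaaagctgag
Rps15a: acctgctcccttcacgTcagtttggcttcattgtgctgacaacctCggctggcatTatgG
Rps15a-ps4: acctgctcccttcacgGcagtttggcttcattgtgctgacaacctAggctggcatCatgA
Rpl26: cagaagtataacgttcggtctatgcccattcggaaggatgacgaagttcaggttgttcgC
Gm15772: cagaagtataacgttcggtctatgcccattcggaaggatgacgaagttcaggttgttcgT
Rps23: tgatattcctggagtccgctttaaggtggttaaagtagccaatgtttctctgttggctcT
Gm5148: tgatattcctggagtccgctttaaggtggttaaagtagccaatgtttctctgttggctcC

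Over the whole coding sequence, 381 of 390 bases of Rps15a were the same in Rps15a-ps4, 433 of 435 bases of Rpl26 in Gm15772, and 415 of 429 bases of Rps23 in Gm5148. The copy was listed above the member in all 24 libraries for Rps15a-ps4, at 80.7 to 184 FPKM against 4.89 to 15.4 for Rps15a, and for Gm15772, at 34.5 to 244 against 0.001 to 31.7 for Rpl26. Rplp2-ps1, named as a pseudogene of Rplp2, was listed at 465 to 729 FPKM against 32.2 to 71.0 for Rplp2, the stalk protein, again above it in all 24 libraries. Gm5148 was listed at 56.6 to 148 FPKM and exceeded Rps23 in 20 libraries. These 4 pairs were singled out after their values were seen. Among other copies with a row, Rps15a-ps6 exceeded Rps15a in 17 libraries. Gm12191, a copy of Rpl30, exceeded it in only 4 and was listed at 0.001 in 18. Further copies with a row, such as Rpl34-ps1 and Rps19-ps3, were not compared with their members. How often a copy is listed above its member is therefore not given. How the reads of a member and its copies were divided was not tested, since the table holds no reads.

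The transcript starts were compared with a RefSeq promoter table (GRCm38.p6), in which 56 members had an entry. An unbroken run of at least 8 letters that are each C or T, on the coding strand and within 15 bases before and 15 after the start, was found in 24 of the 56, which is 42.9%. The same search found it in 9 of 69 genes of mitochondrial ribosomal proteins, which work in another ribosome, and in 11.9% of all promoters of that length. CCGGAAG or its reverse complement CTTCCGG, which may overlap such a run, lay between 250 bases before and 50 after the start in 41.1% of the members, 36.2% of the mitochondrial set, 19.3% of the tested rows with an entry and 9.1% of all promoters. The windows of 4 members that rose in MacLowKit+Sca1+ are shown with their longest run in capitals: Rpl13a (chr7:45128731-45128760, minus strand), Rpl14 (chr9:120571502-120571531, plus strand), Rpl4 (chr9:64173372-64173401, plus strand) and Rpl22 (chr4:152325711-152325740, plus strand).
Rpl13a: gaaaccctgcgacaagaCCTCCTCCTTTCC
Rpl14: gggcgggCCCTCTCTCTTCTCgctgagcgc
Rpl4: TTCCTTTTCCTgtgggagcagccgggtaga
Rpl22: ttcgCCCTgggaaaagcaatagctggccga
The runs of Rpl13a, Rpl14 and Rpl4 were 13, 14 and 11 letters long, and that of Rpl22 was 4. In Rps3 and Rps15, which also rose against MacHigh, the longest run was 3 letters. The start follows the first 15 letters of each window, so the run of Rpl4 lies wholly before its RefSeq start. A match describes these letters only.

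Across the 4 sorted groups, few members differed next to the rest of the table. The moderated F test of limma, with Benjamini-Hochberg adjustment over 11599 rows, called 17 of 75 members, against 83.2% of all rows. With the sample name prefix, described below, as a block it called 28 of 75 members, against 90.6%. Among the 17 were Rpl3, Rpl4, Rpl13a, Rpl14, Rpl15, Rpl18, Rpl22, Rpl23a, Rpl27a, Rps3, Rps9, Rps20, Rps27, Rps27a and Rps27l. Of the 12 members with a shared stretch of 50% or less, 8 were among them, and of the 64 over 50%, 9 were. The 12 include Rps15, which was not tested. The same test called 64 of 75 genes of mitochondrial ribosomal proteins. Rps15 was left out here and in each comparison with MacLowKit+Sca1-, because all 5 libraries of that group list it at 0.001, whereas the other 19 libraries list it between 442 and 1005 FPKM. Such a value in a whole group may be a failed estimate, and no difference is given for it.

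The sample name prefix took a larger share of the variance of the members than of the rest of the table, and the group a smaller one. With group and prefix in one fit, the prefix accounted for a median of 34.8% of the variance of 75 members and the group for 20.2%, whereas over all 11599 rows the medians were 16.0% and 64.1%. The prefix had the larger share in 48 of 75 members and in 15.9% of all rows. The 6 prefixes take more terms of the fit than the 5 groups, so a larger share can arise without any effect of a prefix. As a share of total variance, it also grows where the groups differ little. An F test of the prefix beside the groups, chosen after seeing the data, called 34 of 76 members and 34 of 75 genes of mitochondrial ribosomal proteins, against 42.3% of all rows, so the count of calls was near the background.

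Rps23, a small subunit protein of the decoding centre, shows the pattern. It was at 118 to 139 FPKM in the 4 libraries with the prefix L, and at 96.1 to 138 in the R libraries of all groups but MacLowKit+Sca1+, where R had 32.9. In the 5 libraries with the prefix 26 it was at 3.54 to 16.8, and in the 3 with N at 3.32 to 32.8. In the other 4 groups high and low libraries stood side by side by prefix, and those groups overlapped. MacLowKit+Sca1+ has no L library, and its 4 libraries lay between 15.9 and 32.9. Rpl10, a large subunit protein at the subunit joint, was likewise at 84.3 to 96.4 FPKM in L, at 62.6 to 114 in R and at 5.41 to 17.6 in 26. Rps10 and Rps12 had their highest medians in L and R too, 76.8 and 74.3 FPKM for Rps10 and 5.54 and 5.13 for Rps12. Other members were high under other prefixes. Rpl37a had medians of 52.5 FPKM in 26 and 56.4 in N and at most 13.5 in the other 4, and Rpl11 stood at 72.2, 98.0 and 98.6 in the 26 libraries of unsorted, MacHigh and MacLowKit+Sca1+ but under 10 in the other 21. Rps23, Rps10, Rps12 and Rpl37a were singled out after their values were seen. Relative depth, read from the steps of low values between libraries, moved with the prefix: it was 1.53 to 1.80 in L and 0.853 to 1.19 in 11, 12, 26 and N. In R it was 1.27 to 1.96 in 4 libraries and 0.795 in that of MacLowKit+Sca1+, the R library in which Rps23 was low. Its part in the pattern was not tested.

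Rps27a and Rpl23a were among the 3 members whose group means varied most around the members' median of each group. The SD of that deviation over the groups was 1.22 and 1.02 on the log2 scale. At the other end Rpl15, Rpl27a and Rpl41 followed the members' median most closely. They need not be constant, since Rpl15 and Rpl27a were among the members called in the F test among sorted groups.

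**Figure D3:**
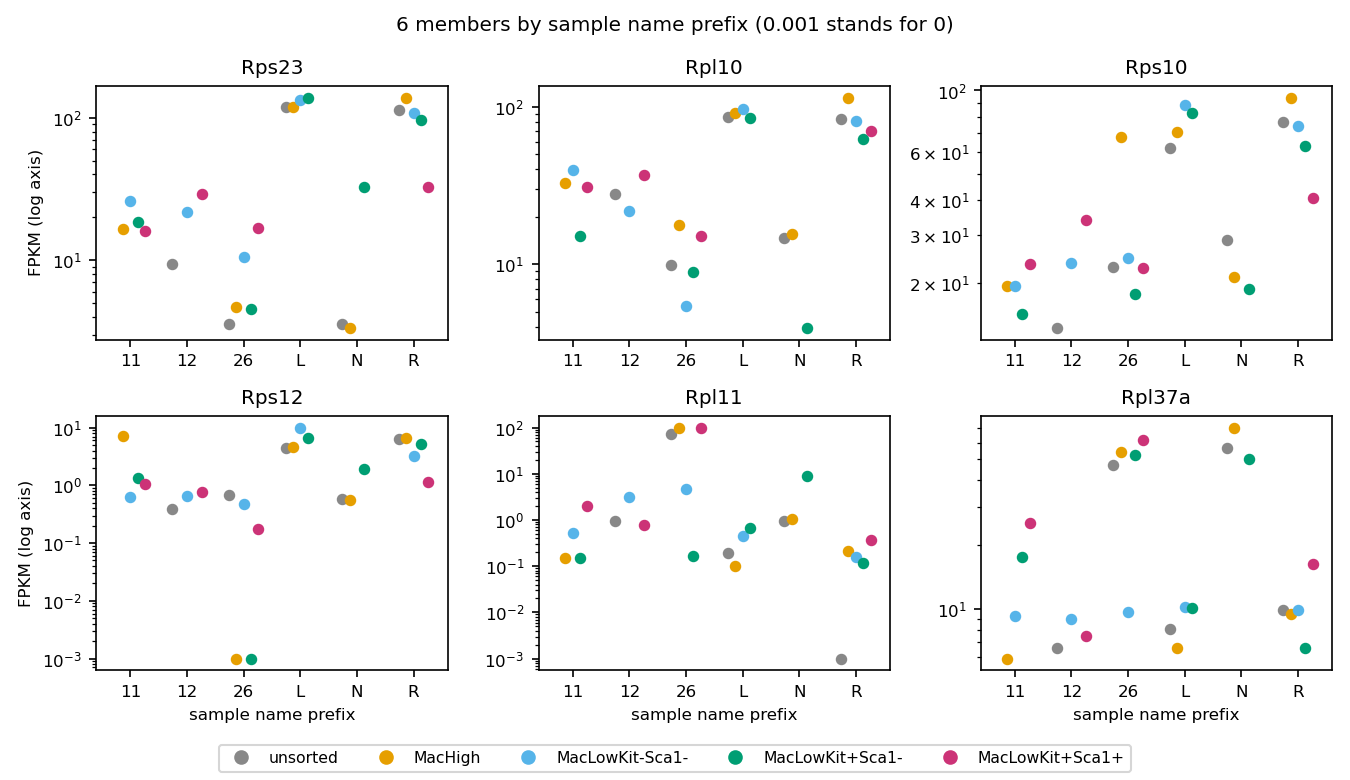
FPKM (log axis, 0.001 stands for 0) of 6 members by sample name prefix, 1 point per library, coloured by group. Rps23, Rpl10, Rps10 and Rps12 lie highest in L and R, and Rpl11 and Rpl37a in 26 or N.

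MacLowKit+Sca1+ against MacHigh compares the Kit+ Sca-1+ population with the bulk that carries high Mac-1. The data show 10 of 76 members higher and 1 lower in MacLowKit+Sca1+ at an adjusted p under 0.05, against 23.6% of all rows higher and 22.4% lower, so both shares of members were below the background. The median difference of the members was 0.23 on the log2(FPKM + 1) scale, against 0.03 over all rows, which equal FPKM sums moved to 0.13. Members with few copies made up most of the calls: 7 of the 12 with a shared stretch of 50% or less were higher. Rps3, a small subunit protein at the mRNA entry, was listed at 687, 644, 609 and 699 FPKM in the 4 libraries of MacLowKit+Sca1+ and at 469, 492, 460, 452 and 545 in MacHigh. Every library of MacLowKit+Sca1+ lay above every library of MacHigh, and the log2 difference was 0.45 ± 0.10 (SE; limma, adjusted p = 0.000818). Rpl14, a large subunit protein, was at 220, 222, 176.5 and 244 FPKM against 141, 139, 136, 134 and 176.2. Rpl13a was at 271, 317, 304 and 320 against 192, 269, 211, 171 and 248. Both rose without overlap, by 0.57 ± 0.14 and 0.49 ± 0.13 on the log2 scale (limma, adjusted p = 0.00157 and 0.00398).

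Rpl4, Rps15, Rpl22, Rps20 and Rpl3 rose too. Rpl4, whose loop lines the exit tunnel, was at 1078, 985, 982 and 1039 FPKM against 745, 832, 719, 820 and 860 and did not overlap; it was singled out after its values were seen. Rps15 was at 596, 757, 897 and 1005 against 507, 672, 556, 569 and 678. For Rps15, 1 library of MacLowKit+Sca1+ reached into the range of MacHigh. The largest rise was that of Rpl3, a large subunit protein near the peptidyl transferase centre, with 42.7 ± 11.4 FPKM (SD, n = 4) against 18.6 ± 8.76 (n = 5), a log2 difference of 1.24 ± 0.33 (limma, adjusted p = 0.00399). The groups overlapped for Rpl3, with a lowest value of 29.38 in MacLowKit+Sca1+ and a highest of 29.46 in MacHigh. Of its 50-base coding stretches 95.7% are found elsewhere. Rpl3l, the muscle paralogue of Rpl3, did not pass the level rule and reached 2.08 FPKM in 1 MacHigh library.

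Rps27a, which is made as a fusion with ubiquitin, was the member that fell. It was at 2.76, 2.21, 1.44 and 0.689 FPKM in MacLowKit+Sca1+ and at 113, 18.6, 13.4, 18.3 and 8.69 in MacHigh, so the groups did not overlap, and the log2 difference was -3.10 ± 0.99 (limma, adjusted p = 0.0139). All of its 50-base coding stretches are found elsewhere, and its other groups reached from 0.489 to 35.5 FPKM.

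Markers of other spleen cells moved with this group. Of 11 dendritic cell markers tested 8 were called higher and 1 lower than in MacHigh, with a summed level of 983 to 1966 FPKM in MacLowKit+Sca1+, 404 to 893 in MacHigh, 47.3 to 277 in MacLowKit+Sca1-, 77.8 to 199 in MacLowKit-Sca1- and 292 to 431 in unsorted cells. Of 12 red pulp macrophage markers 7 were called higher and 2 lower, with sums of 840 to 2130, 664 to 1180, 89.2 to 134, 82.2 to 173 and 461 to 575 FPKM in the same order. No marker of these lists was under 1 FPKM in every library of MacLowKit+Sca1+. T cell markers summed to 43.4 to 64.0 FPKM there and to 10.3 to 12.2 in MacHigh, with Cd3e, Cd2, Cd28, Cd8b1 and Bcl11b under 1 in every library of MacLowKit+Sca1+. NK cell markers were higher in 8 of 10, with sums of 46.1 to 128 against 30.2 to 59.4 FPKM. The part of these cells in the differences of the members was not tested. In bulk samples, fewer cells of a type and less RNA per cell cannot be told apart.

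MacLowKit+Sca1+ against MacLowKit+Sca1- asks what the Sca-1 gate separates among Kit+ cells, and it gave the largest number of calls among members. Of 75 members 16 were higher and 2 lower, against 26.8% and 28.5% of all rows, with a median difference of 0.44 against -0.02. Libraries of the same prefix deviated together here, and with the prefix as a block 29 members were higher and none lower, against 30.3% and 32.8% of all rows. When each library was rescaled to the same FPKM sum, 7 were higher and 3 lower and the median was 0.23, with the median of all rows at -0.21. The share of all rows called at equal sums is not given, so these 2 counts have no background. Rpl18, a large subunit protein, was at 95.5, 137, 119 and 141 FPKM against 27.4, 89.3, 57.5, 32.2 and 24.7 in MacLowKit+Sca1-. Rpl13a was at 271, 317, 304 and 320 against 197, 148, 258, 175 and 196. Rpl22, an RNA-binding large subunit protein, was at 101, 102, 130 and 113 against 69.8, 67.6, 79.9, 82.2 and 53.02. None of the 3 overlapped, and they rose by 1.55 ± 0.35, 0.66 ± 0.13 and 0.66 ± 0.16 on the log2 scale (limma, adjusted p = 0.000659, 0.000191 and 0.00166). All 3 were also called at equal FPKM sums, as were Rpl14, Rpl3 and Rps27, whereas Rps3, Rps9 and Rpl4 were not (adjusted p = 0.28, 0.141 and 0.456).

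Rps27, a small subunit zinc finger protein, was at 5.05, 4.67, 4.90 and 5.40 FPKM in MacLowKit+Sca1+ and at 1.92, 3.43, 3.58, 2.26 and 3.53 in MacLowKit+Sca1-. Its log2 difference was 0.63 ± 0.19 (limma, adjusted p = 0.00604) without overlap. After quantile normalization it was 0.23 and no longer called (adjusted p = 0.304). The 2 members that were lower, Rpl23a and Rpl7a, rested on the libraries 26 and N of MacLowKit+Sca1-. Rpl23a was at 22.4 and 28.1 FPKM there and at 3.04 or less in the other 3, and it was no longer called without replicate 2 or replicate 4 of that group (adjusted p = 0.141 and 0.144), nor without replicate 1, 2 or 4 of MacLowKit+Sca1+ (adjusted p from 0.0723 to 0.126). Rpl7a was not called without any 1 of the 4 libraries of MacLowKit+Sca1+. Dendritic cell and red pulp macrophage markers were called higher in MacLowKit+Sca1+ here too, 10 of 11 and 12 of 12, with the sums given above, and their part was not tested.

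MacLowKit+Sca1+ against MacLowKit-Sca1- compares the 2 ends of the Mac-low gate. The data show 7 of 76 members higher and 2 lower, against 21.8% and 23.3% of all rows, with a median difference of 0.12 against -0.03. With the prefix as a block there were 14 higher and 2 lower, against 26.0% and 29.0%, at equal FPKM sums 5 higher and none lower, after rescaling by the median ratio 9 higher and none lower, and after quantile normalization 9 higher and 1 lower. No share of all rows is given for the rescaled counts, so they are not read as a result about the members. Rps3, Rps9, Rps15, Rpl13a and Rpl22 were among the 7 that rose, and all 7 have a shared stretch of 50% or less. Rps3 and Rpl22 did not overlap, with 530, 500, 433, 538 and 450 FPKM and 77.0, 83.4, 83.5, 73.8 and 61.7 in MacLowKit-Sca1-, and they rose by 0.43 ± 0.10 and 0.55 ± 0.16 (limma, adjusted p = 0.00124 and 0.00944). Both stayed called in every alternative run, whereas Rpl13a, Rps9 and Rps15 each lost the call without at least 1 library. Without replicate 4 of MacLowKit+Sca1+ only 2 members were called, and 5 were without its replicate 1 or without replicate 2 of MacLowKit-Sca1-. Lower were Rps27a and Rps27l. Rps27l lost the call at equal FPKM sums (adjusted p = 0.0766), after rescaling by the median ratio (0.0586), after quantile normalization (0.142), without the filter on low values (0.0605), and without any 1 of replicates 1 to 4 of MacLowKit-Sca1- or replicates 1, 2 and 4 of MacLowKit+Sca1+ (0.0678 to 0.107). Rps27a was at 35.5, 35.0, 18.9, 15.7 and 0.573 FPKM in MacLowKit-Sca1-, and the call did not hold without any of the first 4 of these libraries or without any library of MacLowKit+Sca1+ (adjusted p from 0.0591 to 0.108). Of the dendritic cell markers 10 of 11 were called higher in MacLowKit+Sca1+ and of the red pulp macrophage markers 11 of 12, with the sums given above, and their part was not tested.

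**Figure D4:**
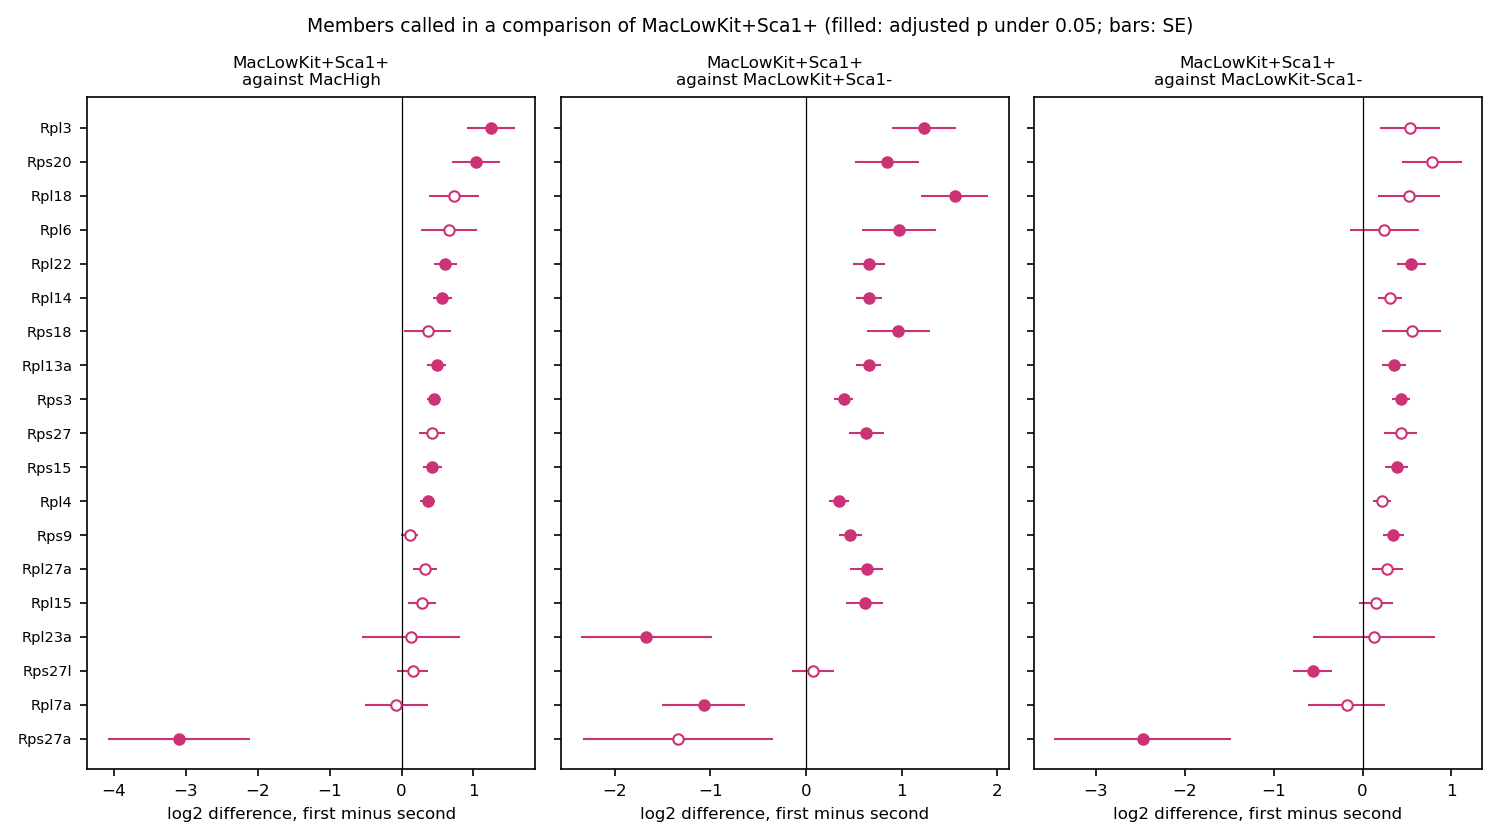
Log2 differences (on FPKM + 1, bars SE) of 19 members called in at least 1 comparison of MacLowKit+Sca1+, which minus the group named second; filled points have an adjusted p under 0.05. Rps3, Rpl13a and Rpl22 are filled in all 3 panels, Rpl18 is highest against MacLowKit+Sca1- at 1.55, and Rps27a is lowest against MacHigh at -3.10; the 3 comparisons share the MacLowKit+Sca1+ libraries.

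MacLowKit-Sca1- against MacHigh gave 1 call among members. Rps27l, a paralogue of Rps27 that p53 is known to induce, was at 155, 168, 166, 151 and 102 FPKM in MacLowKit-Sca1- and at 74.6, 125, 91.4, 78.9 and 82.1 in MacHigh. Replicate 5 of MacLowKit-Sca1- reached into the range of MacHigh, and the log2 difference was 0.71 ± 0.21 (limma, adjusted p = 0.00631). Of the dendritic cell markers 1 of 11 was called higher and 8 lower in MacLowKit-Sca1-, and all 12 red pulp macrophage markers were lower, with the sums given above. NK cell markers summed to 60.9 to 211 FPKM in MacLowKit-Sca1- against 30.2 to 59.4 in MacHigh, without overlap. T cell markers summed to 23.2 to 30.6 against 10.3 to 12.2. The part of these cells was not tested. Over all rows 24.5% were higher and 26.2% lower, and with the prefix as a block 2 members, Rps27l and Rpl41, were higher and none lower, against 28.6% and 31.9%. The count was 3 without replicate 2 or 5 of MacHigh and 2 without its replicate 1 or without replicate 3 of MacLowKit-Sca1-. The members' median was 0.07. Genes of mitochondrial ribosomal proteins stood at 65 of 75 higher and 1 lower in the same fit, with a median of 0.48, and genes of ribosomal protein chaperones and export factors at 20 of 24 higher and none lower, with a median of 0.54; these medians stayed positive under each of the 3 rescalings. Grwd1, a chaperone of Rpl3, was at 30.5 ± 6.38 FPKM (SD, n = 5) against 13.8 ± 2.33 (n = 5), a log2 difference of 1.08 (limma, adjusted p = 2.085e-05). Myc was at 75.5 ± 21.1 against 39.2 ± 8.77, a log2 difference of 0.92 (limma, adjusted p = 0.00129). A mean above that of MacHigh was not particular to MacLowKit-Sca1-. Myc was at 88.5 ± 28.3 FPKM (SD, n = 4) in MacLowKit+Sca1+, 75.6 ± 23.5 (n = 5) in MacLowKit+Sca1- and 59.2 ± 4.17 (n = 5) in unsorted cells.

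MacLowKit+Sca1- against MacHigh gave 2 members higher and 3 lower of 75, against 32.5% and 30.3% of all rows, with a median of -0.15 against 0.03. The direction depended on the scaling. At equal FPKM sums 4 members were higher and none lower and the median was 0.17, while that of all rows was 0.32. Quantile normalization gave 5 higher and 1 lower. Neither rescaled count has a share of all rows beside it. Rps9, a small subunit protein, was at 1069, 855, 1090, 934 and 971 FPKM against 1070, 1344, 1193, 1184 and 1497, a log2 difference of -0.35 ± 0.11 (limma, adjusted p = 0.00934), but only -0.02 at equal sums (adjusted p = 0.918) and 0.05 after quantile normalization. Rps26 and Rpl18 were the other members that were lower, and Rpl7a and Rpl23a those that were higher. Each of these 4 lost the call without at least 1 library. The count was 11 without replicate 3 of MacLowKit+Sca1-, 2 without its replicate 2, and 3 without its replicate 1 or 4 or without replicate 2 of MacHigh.

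MacLowKit+Sca1- against MacLowKit-Sca1-, which differ by the Kit gate, gave 1 member higher and 8 lower of 75, against 24% and 26.3% of all rows, with a median of -0.27 against -0.02. With the prefix as a block there were 2 higher and 14 lower, against 29.1% and 31.1%. At equal FPKM sums 2 were higher and 2 lower, and the median was -0.06, with that of all rows at 0.18. Quantile normalization gave 1 higher and 5 lower. Shares of all rows under these rescalings are not given, so their counts have no background. Rpl18 was lower in both scalings, at 27.4, 89.3, 57.5, 32.2 and 24.7 FPKM against 99.6, 79.8, 111, 69.8 and 70.6, a log2 difference of -1.03 ± 0.33 (limma, adjusted p = 0.0122). Rpl26 was listed at 0.001 in 4 of 5 libraries of MacLowKit+Sca1- and at 1.34 in the fifth, and at 2.91, 30.1, 16.1, 1.44 and 4.68 in MacLowKit-Sca1-, while its copy Gm15772 was at 34.5 FPKM or more in each. It was listed at 0.001 in 11 of 24 libraries, which may be failed estimates, so no lower level is read from its call. The call of Rpl26 did not hold without replicate 2 or 3 of MacLowKit-Sca1- (adjusted p = 0.0823 and 0.0621). Over all members the count was 16 without replicate 3 of MacLowKit+Sca1-, 3 without its replicate 2, and 5 without its replicate 4 or 5 or replicate 2 of MacLowKit-Sca1-, and 4 without replicate 4 of the latter.

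Unsorted cells against MacHigh gave no member higher and 1 lower of 76, against 18.2% and 21.3% of all rows, and 2 members had an unadjusted p under 0.05. With the prefix as a block 1 was higher and 2 lower, against 23.4% and 28.4%. Rps9 was the member called, at 968, 1007, 912, 1162 and 1085 FPKM in unsorted cells, a log2 difference of -0.29 ± 0.11 (limma, adjusted p = 0.0452). At equal FPKM sums it was not called (adjusted p = 0.611), 1 other member was higher and none lower, and the median of all rows was 0.15. That count has no share of all rows beside it. The count was 0 without any of replicates 1, 2 or 3 of unsorted or replicates 2 to 5 of MacHigh, and 2 without replicate 1 of MacHigh. Erythroid markers, 11 of 12 higher in unsorted cells with a sum of 421 to 2204 FPKM against 19.0 to 117, moved with this comparison, and their part was not tested.

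As a share of a library's FPKM sum, the members came to 2.77 ± 0.34% (SD, n = 4) in MacLowKit+Sca1+, to 2.28 ± 0.36% (n = 5) in MacLowKit-Sca1-, to 2.24 ± 0.49% (n = 5) in MacLowKit+Sca1-, to 2.22 ± 0.31% (n = 5) in unsorted cells and to 2.06 ± 0.25% (n = 5) in MacHigh. The single libraries of MacLowKit+Sca1+ were at 3.27, 2.65, 2.51 and 2.67%, and all lay above the highest MacHigh library, 2.42%. They overlapped the other 3 groups, whose highest libraries had 2.81, 2.83 and 2.74%. The sum is carried by few members, since the 9 highest held 56.4% to 67.3% of it. Rps15 is counted in these sums at the 0.001 listed in MacLowKit+Sca1-. Without Rps15 the shares were 2.63%, 2.17%, 2.24%, 2.11% and 1.96% in the order given first, so that MacLowKit+Sca1- then stood above MacLowKit-Sca1-, within the spread of both. No test was run on the share, as it is a score over the members.

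**Figure D5:**
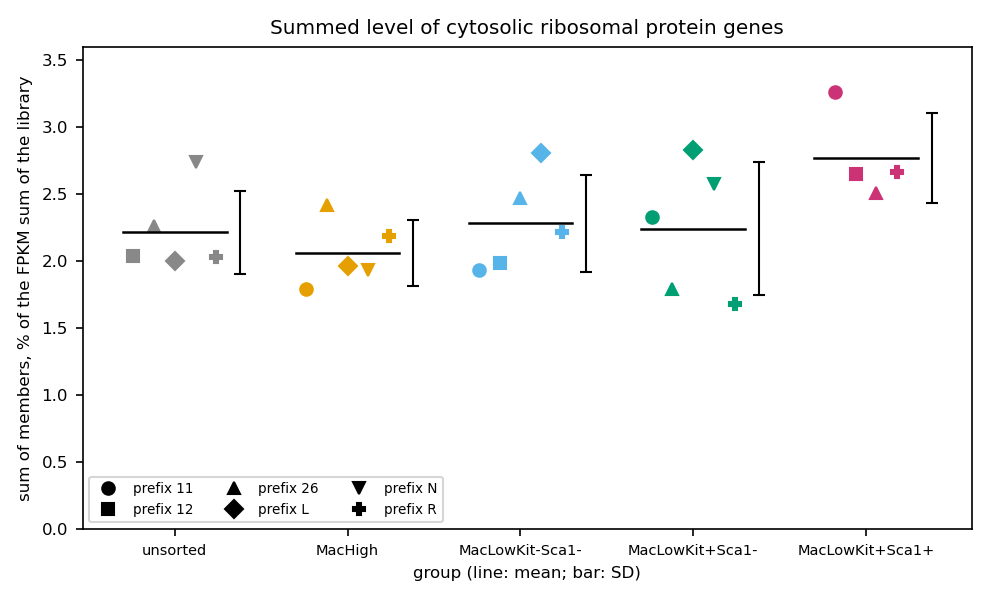
Summed FPKM of the members as percent of the FPKM sum of each library, by group, with the mean (line) and SD (bar); symbols give the sample name prefix. MacLowKit+Sca1+ lies at 2.51 to 3.27% and MacHigh at 1.79 to 2.42%, and the other groups overlap both.

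A further 11 members, chosen for their roles, were not called in any of the 7 comparisons. Rps6, the substrate of S6 kinase, was at 26.3 ± 8.56 FPKM (SD, n = 4) in MacLowKit+Sca1+ and at 19.1 ± 3.81 (n = 5) in MacHigh. Rps14, whose loss is known from a deletion syndrome of human myelodysplasia, was at 418 ± 96.4 and 476 ± 114, and Rps19, mutated in Diamond-Blackfan anaemia, at 82.8 ± 10.8 and 68.1 ± 32.7. Rpl5 was at 8.04 ± 3.26 and 7.51 ± 2.47 FPKM, and its partner Rpl11 had the prefix pattern given above. The stalk proteins Rplp0 and Rplp1 lay between 370 and 735 and between 255 and 644 FPKM over all libraries. Rpsa, the laminin receptor precursor, was at 151, 131, 97.4 and 128 FPKM in MacLowKit+Sca1+ and at 59.6, 92.4, 74.2, 81.9 and 81.1 in MacHigh, and Rps4x and Rpl38 overlapped between all groups. Adjusted p-values of these members and of Rplp2 lay between 0.059 and 0.992 over the 7 comparisons (limma). Of 17 targets of p53, counted with Mdm2, 1 was higher and 9 were lower in MacLowKit+Sca1+ than in MacHigh, against 23.6% and 22.4% of all rows, with Cdkn1a at 29.0 ± 4.00 against 136 ± 33.3 FPKM. The markers of other cells given for that comparison moved with it, and their part was not tested.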

How the data were processed

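RNA from unsorted and sorted leukaemic spleen cells was sequenced in 24 libraries. The deposited table holds FPKM values, made by the authors with TopHat2 2.0.4 and Cuffdiff on mm10, per the submitters' processing notes. It holds no read counts, so depth is unknown beyond ratios between libraries, and 0.001 stands for 0. Rows at 1 FPKM or more in at least 4 libraries (11599 of 23361) were fitted as log2(FPKM + 1) in a 5-group model with limma 3.58.1 (R 4.3.3, trend), with Benjamini-Hochberg adjustment over all rows and a threshold of 0.05. The procedure was also run on simulated data with independent noise and no effect of a prefix, so that run does not bear on the prefix pattern. Members and lists were chosen with earlier results of these data known. Members were named by size of change without overlap, by highest and lowest levels, by most and least variation around the members' median, as paralogues, or for their role. Others are said to be chosen later. Same-prefix libraries deviated together (every correlation over 0.1) in 5 of 7 comparisons, and blocked counts stand beside those results. Alternatives were scaling, filter, pseudocount, model, blocks and leaving out each library. Shares of all rows are given for the main fit and, in those 5 comparisons and the F test, for the prefix block. Counts under other alternatives have no such background. Sequences came from GENCODE M21 and RefSeq. Rpl36a, Rpl10l, Rpl39l and Rpl3l failed the level rule, and Rps4l was not analysed here. Results on 3 members are not reported here; counts include them.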

Additional observations from a re-analysis of the deposited data

Results flagged for a closer look

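Within each group of 4 or 5 libraries, the highest and the lowest value of 33 named members and of the members' summed level were compared with the rest by Dixon's criterion. Of 170 groups gone through, 22 had a library far from the others. Rps15 in MacLowKit+Sca1-, listed at 0.001 throughout, could not be flagged. The criterion assumes normally distributed values and was applied to FPKM without logs. The groups also share libraries, so no rate by chance is given beside the 22. Rpl11 stood out in 4 groups. It was at 72.21 FPKM in unsorted replicate 2, at 97.95 in MacHigh replicate 2 and at 98.56 in MacLowKit+Sca1+ replicate 3, all with the prefix 26, and at 9.031 in MacLowKit+Sca1- replicate 4, with the prefix N. The other libraries of these groups reached at most 0.963, 1.05, 1.97 and 0.678. Rpl39 was high at 271.0 FPKM in unsorted replicate 4, 333.5 in MacLowKit-Sca1- replicate 3 and 399.8 in MacLowKit+Sca1- replicate 4, with the prefixes N, 26 and N. Other libraries with the prefix 26 were high for Rps13, at 3.771 in MacLowKit-Sca1- replicate 3 and 5.057 in MacLowKit+Sca1+ replicate 3, for Rpl27, at 2.814 in MacLowKit+Sca1+ replicate 3, for Rps27l, at 128.2 in the same library, and for Rpl26, at 31.68 in unsorted replicate 2.

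Libraries with the prefix L were high for Rpl17, at 4.331 FPKM in unsorted replicate 3 and 9.893 in MacLowKit+Sca1- replicate 3, and in MacLowKit+Sca1- replicate 3 for Rpl15, at 19.72, and Rpl26, at 1.338 where the other 4 were listed at 0.001. MacHigh replicate 5, with the prefix R, was high for Rpl14, at 176.2, and Rpl8, at 1749. Rps19 was at 129.6 in MacLowKit+Sca1- replicate 4, and Rps27a at 112.8 in MacHigh replicate 1. Values low for their group were those of Rps27l, at 101.8 in MacLowKit-Sca1- replicate 5, and Rpsa, at 14.19 in MacLowKit-Sca1- replicate 1, where the other 4 libraries had 86.0 to 105.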

How the results depend on the processing

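With the sample name prefix as a replicate block, the number of members called was 18 for MacLowKit+Sca1+ against MacHigh, 9 for MacLowKit+Sca1- against MacHigh, 2 for MacLowKit-Sca1- against MacHigh, 29 for MacLowKit+Sca1+ against MacLowKit+Sca1-, 16 for MacLowKit+Sca1+ against MacLowKit-Sca1-, 16 for MacLowKit+Sca1- against MacLowKit-Sca1-, 3 for unsorted against MacHigh, and 28 in the F test. In the first and second of these, same-prefix libraries did not all deviate together (lowest correlations 0.0477 and -0.049). No share of all rows is given for these 2, nor for the alternatives that follow. A change in those counts may be one of the whole table. The title's replicate number as a block gave 2 for unsorted against MacHigh. Equal FPKM sums gave 10 for MacLowKit+Sca1+ against MacLowKit+Sca1-, 5 against MacLowKit-Sca1-, and 4 for MacLowKit+Sca1- against MacLowKit-Sca1-. Quantile normalization gave 3 for MacLowKit-Sca1- against MacHigh and 0 for unsorted against MacHigh, and it reversed Rps9 in MacLowKit+Sca1- against MacHigh, from -0.35 to 0.0486 (limma, adjusted p = 0.787). Without the filter the counts were 2 for MacLowKit+Sca1- against MacHigh, 5 for MacLowKit+Sca1+ against MacLowKit-Sca1-, 5 for MacLowKit+Sca1- against MacLowKit-Sca1- and 0 for unsorted against MacHigh. With only the groups compared they were 2 for MacLowKit+Sca1- against MacHigh and 4 against MacLowKit-Sca1-. The cause was not tested. Without 1 library the count ran from 10 to 13, 2 to 11, 1 to 3, 14 to 23, 2 to 9, 3 to 16 and 0 to 2 in the order of the first sentences, and from 14 to 22 in the F test. With the 20 highest other rows left out of the denominator, the summed level was 2.725% in unsorted, 2.719% in MacHigh, 2.918% in MacLowKit-Sca1-, 2.504% in MacLowKit+Sca1-, then the lowest, and 3.579% in MacLowKit+Sca1+. At equal FPKM sums the members' median turned from -0.153 to 0.165 in MacLowKit+Sca1- against MacHigh and from -0.0525 to 0.129 in unsorted against MacHigh, and moved from 0.439 to 0.227 in MacLowKit+Sca1+ against MacLowKit+Sca1- and from -0.267 to -0.055 in MacLowKit+Sca1- against MacLowKit-Sca1-. Quantile normalization gave 0.0281 for unsorted against MacHigh. Of 1092 alternatives for 54 single-gene results, 876 kept direction and call, 215 lost the call and 1 reversed. A group listed at 0.001 throughout was also set to missing, an alternative chosen after seeing the data. Depth cannot be read from FPKM, so no counting interval is given.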
